A study of Mus musculus with 6 samples.

Results

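The StAR-related lipid transfer (START) family was followed in epithelial cells of the mouse colon (strain C57BL/6J), in 3 knockout libraries (Nr3c1IEC-/-, genotype B6-Cg-Nr3c1-Vil-Cre/ERT2) and 3 wild-type libraries. The members were chosen by gene symbol, as the mouse genes named Star or Stard with a number: 10 genes, of which 9 had a row among the 23725 genes of the deposited table and the kinesin-like member Stard9 was not analysed here. These 9 are all the Star and Stard symbols that the table holds, but the family was proposed with its knockout against wild-type values known, so those values describe the family, and no p-value is given for a member. Nr3c1 encodes the glucocorticoid receptor, and Vil-Cre/ERT2 is a tamoxifen-inducible recombinase driven by the villin promoter, which is active in intestinal epithelium. Animals of both groups were injected with tamoxifen on 5 consecutive days, and cells were enriched on a Percoll gradient 7 days after the first injection. The labels do not say whether wild-type animals carried the recombinase, nor which part of Nr3c1 was removed. Whether the libraries are separate animals is not stated, so errors here refer to these libraries only.

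START domains form a pocket that holds a lipid and carries it between membranes. Star brings cholesterol into mitochondria for steroid synthesis, Stard3 moves cholesterol at late endosomes, and Stard4, Stard5 and Stard6 are small soluble carriers, of which Stard4 is a textbook target of the sterol-sensing factor SREBP2. Stard7 delivers phosphatidylcholine to mitochondria and Stard10 transfers phosphatidylcholine and phosphatidylethanolamine, while Stard8 and Stard13 join a START domain to a RhoGAP domain, which switches off small GTPases.

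The 250 bases before the annotated start are shown for Stard10, Stard5 and Stard7, lipid carriers that were lower in knockout cells, and for Stard3, which did not pass the threshold. They are from RefSeq on GRCm38.p6, written 5′ to 3′, and capitals mark every match, on either strand, to the glucocorticoid receptor motif AGAACA, the sterol regulatory element TCACNCCAC, the nuclear receptor motif AGGTCA, the CCAAT box CCAAT or the GC box GGGCGG.
Stard10 (chr7:101316836-101317085, plus strand): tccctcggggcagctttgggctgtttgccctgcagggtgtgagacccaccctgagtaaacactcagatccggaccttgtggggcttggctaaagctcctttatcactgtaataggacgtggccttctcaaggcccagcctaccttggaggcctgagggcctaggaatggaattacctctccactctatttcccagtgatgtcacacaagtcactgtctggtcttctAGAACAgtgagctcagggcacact
Stard5 (chr7:83631767-83632016, plus strand): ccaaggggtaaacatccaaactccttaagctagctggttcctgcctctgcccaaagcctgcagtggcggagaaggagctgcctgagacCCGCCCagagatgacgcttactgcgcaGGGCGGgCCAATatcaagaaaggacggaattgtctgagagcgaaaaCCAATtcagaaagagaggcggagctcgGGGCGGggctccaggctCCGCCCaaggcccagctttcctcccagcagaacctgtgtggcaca
Stard7 (chr2:127269979-127270228, plus strand): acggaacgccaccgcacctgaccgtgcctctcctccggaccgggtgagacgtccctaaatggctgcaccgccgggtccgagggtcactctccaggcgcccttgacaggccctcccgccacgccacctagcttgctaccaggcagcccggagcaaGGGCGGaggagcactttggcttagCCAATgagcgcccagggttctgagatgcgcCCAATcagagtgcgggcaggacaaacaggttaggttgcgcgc
Stard3 (chr11:98358118-98358367, plus strand): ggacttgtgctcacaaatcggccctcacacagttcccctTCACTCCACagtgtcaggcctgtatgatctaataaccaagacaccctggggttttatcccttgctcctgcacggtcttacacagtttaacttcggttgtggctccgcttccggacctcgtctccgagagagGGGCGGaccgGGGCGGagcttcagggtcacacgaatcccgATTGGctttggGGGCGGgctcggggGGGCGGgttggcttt
No 2 of the matches overlap. Stard10 has the only glucocorticoid receptor motif of the 4 windows, ending 19 bases before the start, and none of the other motifs; 16.1% of all 32851 RefSeq mouse promoter windows of this length hold that motif. Stard3 has the only sterol regulatory element of the 4 windows, a sequence found in 1.05% of all windows. The window of Stard4, also lower in knockout cells, was not searched. The Stard5 window has 2 CCAAT boxes and 4 GC boxes, that of Stard7 has 2 and 1, and that of Stard3 has 1 and 4, where 33.8% and 32.7% of all windows have at least 1 of each. The nuclear receptor motif, in 14.0% of all windows, is in none of the 4, but the windows of Stard8 and Stard13, not printed here, hold 2 matches and 1 match to it. A match is a run of letters and no evidence of binding.

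The libraries hold between 10089313 and 12030844 reads each. The targeted gene Nr3c1 had 144.7, 123.1 and 174.7 normalized reads in knockout replicates 1 to 3 (KO1, KO2 and KO3), against 1119.8, 967.1 and 196.7 in wild-type replicates 1 to 3 (WT1, WT2 and WT3; two-sided exact permutation p = 0.1, the smallest that 3 against 3 libraries allows). The library labelled WT3 therefore goes against its label at this gene, and the members and the counts of calls are also given without it. Of 10 colonic epithelial markers all were tested, 2 being higher (Krt20 and Vil1) and 2 lower (Cdx2 and Car1) in knockout cells. Their summed level was 343800 to 436000 normalized reads in knockout and 454500 to 469300 in wild-type libraries. The sum is lower through Car1, which averaged 39006 ± 24048 in knockout and 143867 ± 31220 in wild-type libraries. Epcam and Krt8 overlapped between the groups. The mean log2 level of 24 tested immune and stromal cell markers moved with genotype, at 7.39, 6.03 and 6.69 in the knockout libraries and 4.59, 5.03 and 5.61 in the wild-type libraries. Of 10 myeloid markers 7 were higher in knockout cells (limma), with a summed level of 2413 to 6867 normalized reads in knockout and 419 to 935 in wild-type libraries. Of 4 tested genes of the list for T and intraepithelial lymphocytes, 2 were higher (Cd52 and Ptprc), and Gzma and Gzmb were not (limma). Genes were tested if they had at least 10 normalized reads in at least 3 libraries. Knockout values alone carried Cd52 and the myeloid marker Fcgr3 past that filter, with WT1 and WT2 below 10. Such genes tend to be higher in knockout cells, so these 2 calls are read no further. Cd3e, Cd3g, Cd8a and Cd4 were too low to be tested. Higher too were 1 of 7 fibroblast and smooth muscle markers and 0 of 1 B cell marker (limma), while the glial marker Sox10 had no read. In such bulk samples fewer cells of a type and less RNA per cell cannot be told apart.

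Stard10 was the leading member by level. Per kilobase of exon, which allows genes to be compared, it averaged 1619 ± 205 normalized reads in knockout and 2324 ± 204 in wild-type libraries (SD, n = 3 each), a level above that of 97.7% of the tested genes. Stard10 held 69.5 ± 1.38% of the summed reads per kilobase of the 9 members in knockout and 70.2 ± 1.52% in wild-type libraries, so its share moved by less than the spread between libraries. In knockout cells the order was Stard10, Stard4 (266 ± 58.7), Stard7 (178 ± 11.5), Stard3 (162 ± 6.01), Stard5 (81.8 ± 13.1), Stard13 (17.9 ± 2.88), Star (2.22 ± 0.29) and Stard8 (1.78 ± 0.59), and of the neighbours in that order only Star and Stard8 overlapped. In wild-type cells Stard4 followed Stard10 with 388 ± 5.78 reads per kilobase, then Stard7 with 242 ± 10.5, Stard5 with 166 ± 33.7, Stard3 with 154.9 ± 10.3, Stard13 with 24.9 ± 1.39, Stard8 with 6.84 ± 1.60 and Star with 2.40 ± 0.62. These were separated from their neighbours in every library, except Stard5 from Stard3. Stard3 thus stood above Stard5 in every knockout library, and its share of the family was 7.03 ± 0.89% in knockout against 4.69 ± 0.23% in wild-type libraries. Over the 9 members the summed level was 2329 ± 266 reads per kilobase in knockout and 3309 ± 231 in wild-type cells.

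**Figure D1:**
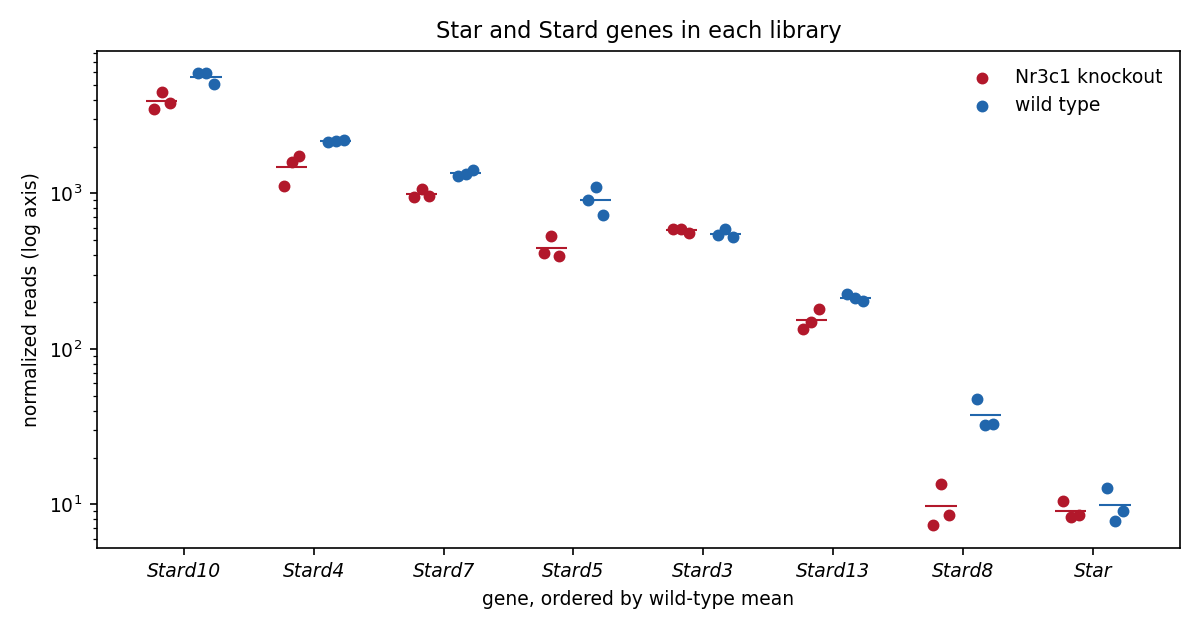
Normalized reads of 8 Star and Stard genes on a log axis, 1 point per library with the group mean as a line, Nr3c1 knockout left of wild type for each gene. The groups are apart for Stard10, Stard4, Stard7, Stard5, Stard13 and Stard8 and overlap for Stard3 and Star; Stard6, with 1 read in all, is not drawn.

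Of the cholesterol carriers, Stard5 and Stard4 were lower in knockout cells and Stard3 and Star were not separated between the groups. Stard5 (chromosome 7, 83632017 to 83642328, GRCm38), a soluble protein that binds cholesterol and bile acids, had 414, 529 and 397 normalized reads in knockout and 902, 1093 and 726 in wild-type libraries. Every knockout library lay below every wild-type library, and the mean was 50.8% lower (log2 change -1.01, SE 0.18). Stard4 (chromosome 18, 33199138 to 33213862) had 1114, 1598 and 1740.4 normalized reads in knockout and 2130.2, 2185 and 2187 in wild-type libraries. The wild-type libraries agreed closely, with a coefficient of variation of 1.49%, whereas the knockout libraries spread by 22.1%, KO1 being the lowest. The log2 change of Stard4 was -0.57 (SE 0.17), and -0.38 without KO1, which is also the library of highest immune and stromal marker level.

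Stard3 (chromosome 11, 98358367 to 98381112), the late endosomal member, had 592, 587 and 553 normalized reads in knockout and 537, 593 and 524 in wild-type libraries. Its groups overlapped, the log2 change was 0.068 (SE 0.10), and it stood in the middle of all genes, 54.5% of which had a lower log2 change. Star (chromosome 8, 25808474 to 25815982), the steroidogenic founder of the family, was near the detection limit with 10, 8 and 9 reads in knockout and 12, 8 and 10 in wild-type libraries. That was too low for the fit, which took genes with at least 10 normalized reads in at least 3 libraries. Without that filter its log2 change was -0.087 (SE 0.37). Stard6 (chromosome 18, 70472454 to 70505254), a carrier known from testis, had 1 read in KO1 and none in the other 5 libraries, where a count of 0 allows up to 3 reads, or 2.73 to 3.18 normalized reads per library. It shares its locus with the gene 4930503L19Rik, and these libraries are not stranded.

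Both phospholipid carriers were lower in knockout cells. Stard10 (chromosome 7, 101317086 to 101346626) had 3489.8, 4461 and 3799 normalized reads in knockout and 5909, 5905 and 5052 in wild-type libraries. The groups did not overlap, and the mean was 30.3% lower (log2 change -0.53, SE 0.13). Stard7 (chromosome 2, 127270202 to 127298935) had 947, 1066 and 966 normalized reads in knockout and 1297, 1332 and 1411 in wild-type libraries. Its coefficients of variation were 6.44% in knockout and 4.33% in wild-type libraries, the groups did not overlap, and the mean was 26.3% lower (log2 change -0.44, SE 0.10).

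Stard8, the RhoGAP member also called DLC3, had the largest fitted change of the family, and at a low level. Stard8 (chromosome X, 99002933 to 99074728) was covered by 7, 13 and 9 reads in knockout and 45, 33 and 36 reads in wild-type libraries, or 7.34, 13.5 and 8.59 against 47.8, 32.3 and 32.8 normalized reads. Its log2 change was -1.86 (SE 0.33), a value that 2.94% of the tested genes exceeded downward. Its wild-type values alone carried it past the filter of 10, with KO1 and KO3 below that value and KO2 above it. A gene that enters the fit in this way tends to be lower in knockout cells, so the change is read no further. Of 8 endothelial markers, with a summed level of 26.9 to 43.0 normalized reads in knockout and 52.8 to 55.7 in wild-type libraries, 2 were tested and none passed the threshold, by limma, while Cldn5 had no read in any library. The endothelial marker Pecam1 averaged 10.3 ± 4.34 in knockout and 22.6 ± 4.59 in wild-type libraries (limma adjusted p = 0.055). Like Stard8, Pecam1 passed the filter by its wild-type values alone, with KO1 and KO2 below 10, so its difference is read no further. Vwf, the other tested marker, averaged 17.1 ± 5.86 in knockout and 23.7 ± 5.80 in wild type, with overlapping groups (limma adjusted p = 0.336). Both means were lower in knockout cells, as that of Stard8 was. The part of these markers in the Stard8 values was not tested. The related RhoGAP gene Stard13 (DLC2; chromosome 5, 151037515 to 151428200) had 133.1, 148 and 181 normalized reads in knockout and 226, 213 and 202 in wild-type libraries. Its groups did not overlap, but with a log2 change of -0.48 (SE 0.16) it did not pass the threshold of the fit. It overlaps 1700028E10Rik, which had 5 reads in all knockout and 6 in all wild-type libraries.

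In the fit across all 12837 tested genes, 30.5% passed an adjusted p of 0.05, 15.4% being lower and 15.0% higher in knockout cells. Of the 9 members that had a row, 7 were tested, 5 were called lower (Stard4, Stard5, Stard7, Stard8 and Stard10) and 0 were called higher. Stard3 and Stard13 were not called. Both edgeR and DESeq2 also called 5, and at an unadjusted p under 0.05 limma had 6. The shares of all tested genes at these last settings are not given here, so those counts have no background to be set against. All knockout values lay below all wild-type values for 6 members, where 25.5% of the tested genes showed this. The median log2 change was -0.53 over the tested members and 0.01 over all tested genes. Stard8, which its wild-type values alone carried past the filter, is in each of these counts of members and in their median. These counts describe a family taken up with this contrast known and are read no further. Without the library labelled WT3 the members called lower were 4 (12.5% of all tested genes), Stard4 being lost. The log2 changes of Stard3, Stard4, Stard5, Stard7, Stard8, Stard10 and Stard13 without it were 0.032, -0.57, -1.16, -0.41, -1.94, -0.60 and -0.52. Without WT1 or WT2 they were 2, Stard5 and Stard8 (7.42% and 7.50% of all tested genes), Stard8 again having passed the filter by its wild-type values. Without KO1, KO2 or KO3 they were 5 each time (12.9%, 14.2% and 13.3% of all tested genes), with Stard13 in place of Stard10 in the last. With the immune and stromal marker level as a covariate limma called 0 members, also 0 at an unadjusted p under 0.05, and 0.249% of all tested genes as lower. The Stard8, Stard5, Stard7, Stard13, Stard4 and Stard10 coefficients of that fit were -0.97, -0.55, -0.38, -0.27, -0.19 and -0.12 on the log2 scale. Marker level and genotype correlated at 0.855 over the 6 libraries, so the 2 cannot be fully told apart in this fit.

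**Figure D2:**
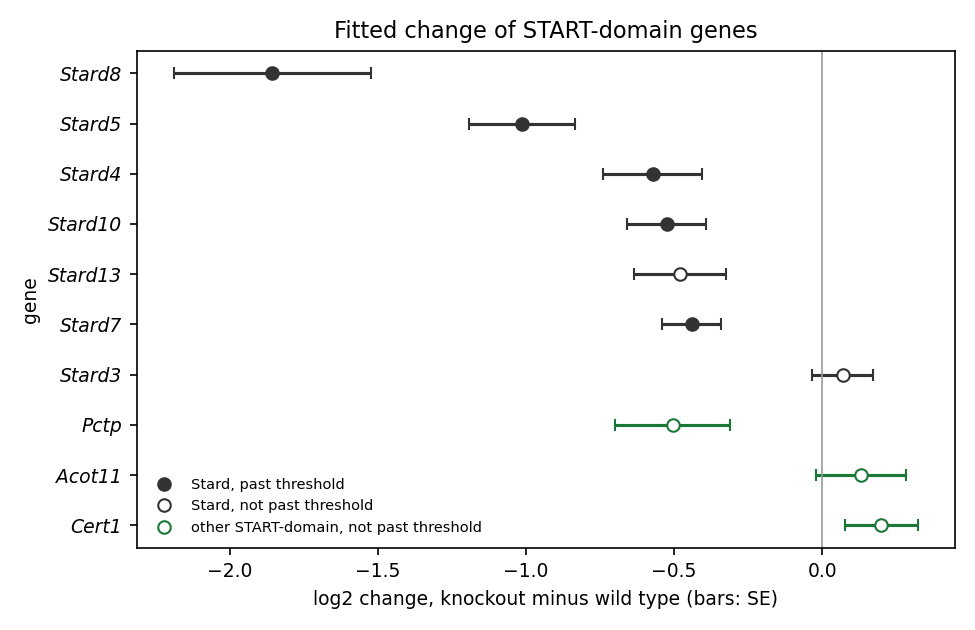
Fitted log2 change, knockout minus wild type, with its SE for the 7 tested Stard genes and the 3 tested START-domain genes with other names; filled points passed the threshold of the fit across all genes. Stard8 lies farthest to the left at -1.86, Stard3 lies next to 0, and Pctp at -0.51 is the only one of the other genes below 0.

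**Figure D3:**
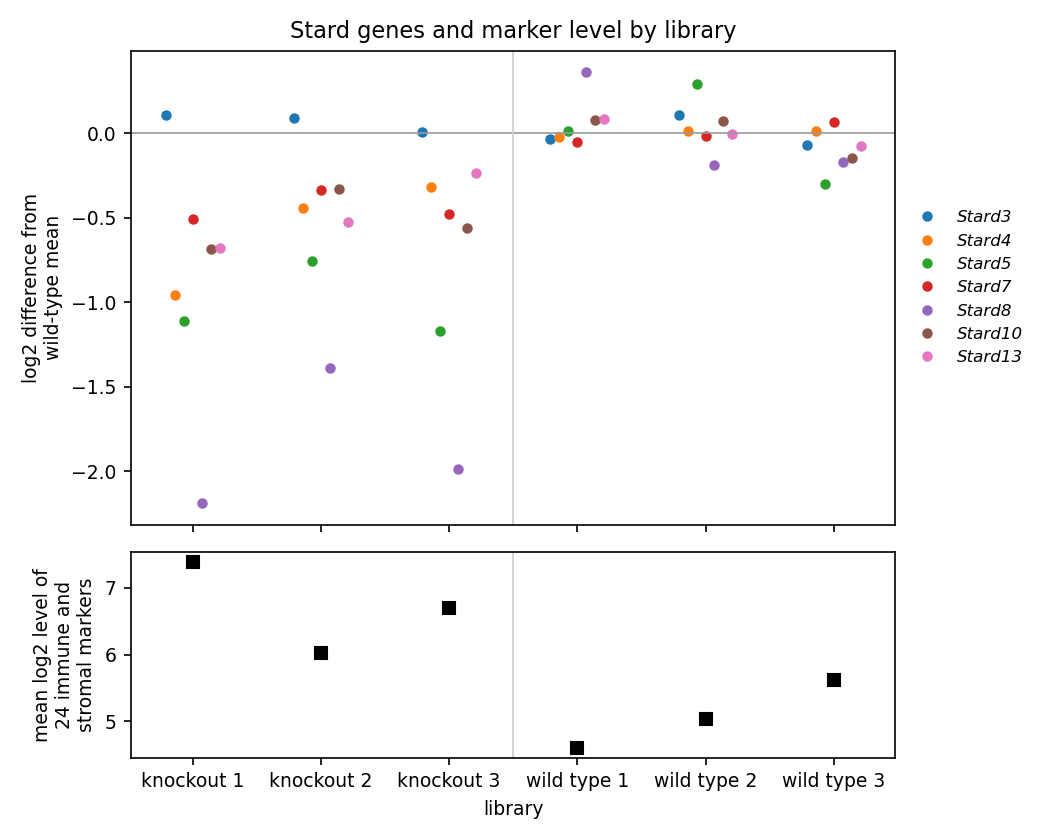
Upper panel, log2 difference of each tested Stard gene from its wild-type mean in each library; lower panel, mean log2 level of the 24 immune and stromal cell markers in the same libraries. KO1 has the highest marker level, 7.39, and the lowest Stard4, Stard8, Stard10, Stard7 and Stard13 values, while the Stard3 values stay near 0 in all 6 libraries.

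The members did not all follow 1 pattern within the knockout group. Relative to the wild-type mean, the median tested member stood at a log2 difference of -0.68 in KO1, -0.44 in KO2 and -0.48 in KO3. Stard4 was -0.96, -0.44 and -0.32 in these libraries and Stard5 was -1.11, -0.76 and -1.17, so that Stard4 was lowest in KO1 and Stard5 in KO3. Over the 6 libraries the log2 levels of Stard5 and Stard10 correlated at 0.972 and those of Stard4 and Stard13 at 0.939, while Stard3 correlated negatively with each of the other tested members, from -0.594 to -0.168. These values, over 6 libraries, include the difference between the groups and the library labelled WT3, and are given as a description.

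The START-domain genes that carry other names were tested in the same fit and none of the 3 with enough reads passed the threshold, by limma, edgeR or DESeq2. Pctp, the phosphatidylcholine transfer protein, had 103.8, 158 and 142 normalized reads in knockout and 193, 210.2 and 166 in wild-type libraries, without overlap (log2 change -0.51, SE 0.19, limma adjusted p = 0.0842, or -0.60 and 0.0889 without the library labelled WT3). It is the 1 gene of these with an unadjusted p under 0.05 in each of the tools. Cert1, which carries ceramide to the Golgi, averaged 754 ± 95.7 in knockout and 654 ± 39.4 in wild-type libraries, and Acot11, an acyl-CoA thioesterase, 972 ± 164 in knockout and 884 ± 106 in wild type (limma adjusted p = 0.24 and 0.538). The RhoGAP gene Dlc1 had 2, 0 and 5 reads in knockout and 6, 7 and 7 in wild-type libraries, and the thioesterase gene Acot12 had 10, 16 and 9 reads in knockout and 2, 0 and 6 in wild-type libraries. Both were below the filter; fitted without it, their limma adjusted p-values were 0.115 and 0.0486, the last with Acot12 at a log2 change of 2.19 (SE 0.67).

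Genes of the pathways around the members went in several directions. In each list the 3 genes of smallest p are given with values, and others are named after their values were seen. Of 19 sterol synthesis genes and SREBP2 targets, the programme to which Stard4 belongs, 3 rose and 0 fell, a share raised that is close to the 15.0% of all tested genes, with a median log2 change of 0.25. These were genes of synthesis enzymes. Fdps averaged 3600.1 ± 561 in knockout and 2299 ± 357 in wild-type libraries, Idi1 3150 ± 210.1 in knockout and 2205 ± 382 in wild type, and Mvd 1071 ± 258 in knockout and 716 ± 49.0 in wild type (limma adjusted p = 0.0207, 0.0285 and 0.0448). The number raised was 0 without KO3, WT1 or WT2, 2 without the library labelled WT3, 5 without KO2, 5 with library weights and 1 after quantile normalization.

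Of 11 oxysterol receptor and sterol efflux genes 2 fell, a share close to the 15.4% of all tested genes, and 0 rose, although the median log2 change was 0.12. Mylip, a ubiquitin ligase of the LDL receptor, averaged 37.4 ± 9.0 in knockout and 99.8 ± 24.4 in wild-type libraries (limma adjusted p = 0.00796), and Nr1h3, the receptor LXR alpha, 122 ± 21.6 in knockout and 182 ± 24.8 in wild type (limma adjusted p = 0.0486). The sterol exporter gene Abcg8 had 52.3 ± 28.7 in knockout and 26.1 ± 13.2 in wild type (limma adjusted p = 0.173). The number fallen was 1 without WT1, WT2, the library labelled WT3, KO1 or KO3, and also with no filter, quantile normalization or library weights.

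Of 13 genes of mitochondrial steroid synthesis, the pathway that Star feeds, 9 were tested, 7 fell and 1 rose, where 15.4% and 15.0% of all tested genes did so, with a median log2 change of -1.68. Without the library labelled WT3 these counts were also 7 and 1. The steroid dehydrogenase genes Hsd3b1 (6.45 ± 1.76 in knockout and 70.2 ± 10.5 in wild-type libraries), Hsd3b2 (146 ± 81.1 in knockout and 1541 ± 169 in wild type) and Hsd3b6 (66.7 ± 38.2 in knockout and 764 ± 73.4 in wild type) had limma adjusted p-values of 0.000663, 0.00102 and 0.00113, and as close paralogs they may share reads. Hsd3b1 was below the filter in every knockout library and entered the fit only through its wild-type values, so it had to differ. The 7 that fell and the median include Hsd3b1, and its part in both is no support. Hsd3b3, of the same gene family, is also among the 7. The electron carrier genes Fdx1 and Fdxr, with Hsd3b3 and Nr5a2, were the others to fall, and Tspo, an outer mitochondrial membrane protein that binds cholesterol, rose to 2486 ± 543 in knockout against 1225 ± 166 in wild-type libraries (limma adjusted p = 0.00597). Cyp11a1, Cyp11b1, Cyp21a1 and Nr5a1 were too low to be tested.

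Of 29 genes of sterol and lipid exchange at membrane contacts 6 rose and 3 fell, together a share close to the 30.5% of all tested genes called in either direction, and the median log2 change was -0.17. Esyt1, a tether of the endoplasmic reticulum to the plasma membrane, averaged 1274 ± 153 in knockout and 737 ± 35.9 in wild-type libraries, the oxysterol-binding protein gene Osbpl3 507 ± 115 in knockout and 220.0 ± 20.0 in wild type, and the phosphatidylinositol carrier gene Pitpna 2982 ± 258 in knockout and 1791 ± 166 in wild type (limma adjusted p = 0.00368, 0.00396 and 0.00449). Those that fell were Osbpl1a, Osbpl7 and Vps13c. Without WT1, 5 rose and 0 fell, and without WT2 or the library labelled WT3, 4 rose and 1 fell, while without KO1 or KO2, 2 fell. Of 11 tested genes of phosphatidylcholine synthesis and remodelling, the source of the lipid that Stard7 and Stard10 carry, 3 fell and 1 rose, where 15.4% and 15.0% of all tested genes did so. The choline kinase gene Chka averaged 252 ± 19.2 in knockout and 456 ± 51.5 in wild-type libraries, and the cholinephosphotransferase gene Chpt1 409 ± 114 in knockout and 825 ± 61.0 in wild type (limma adjusted p = 0.00396 and 0.00895), with Chkb the other to fall. The acyltransferase gene Lpcat4 rose to 1601 ± 428 in knockout against 494 ± 33.9 in wild-type libraries (limma adjusted p = 0.0012). The number fallen was 2 without WT2, the library labelled WT3, KO1 or KO3.

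With the immune and stromal marker level as a covariate 0 of the 81 tested genes of these lists passed the threshold in limma. The lists include the other START-domain genes. An unadjusted p under 0.05 was reached by 10 of the 81. The share of all tested genes at that p is not given here, so the 10 have no background to be set against.

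**Figure D4:**
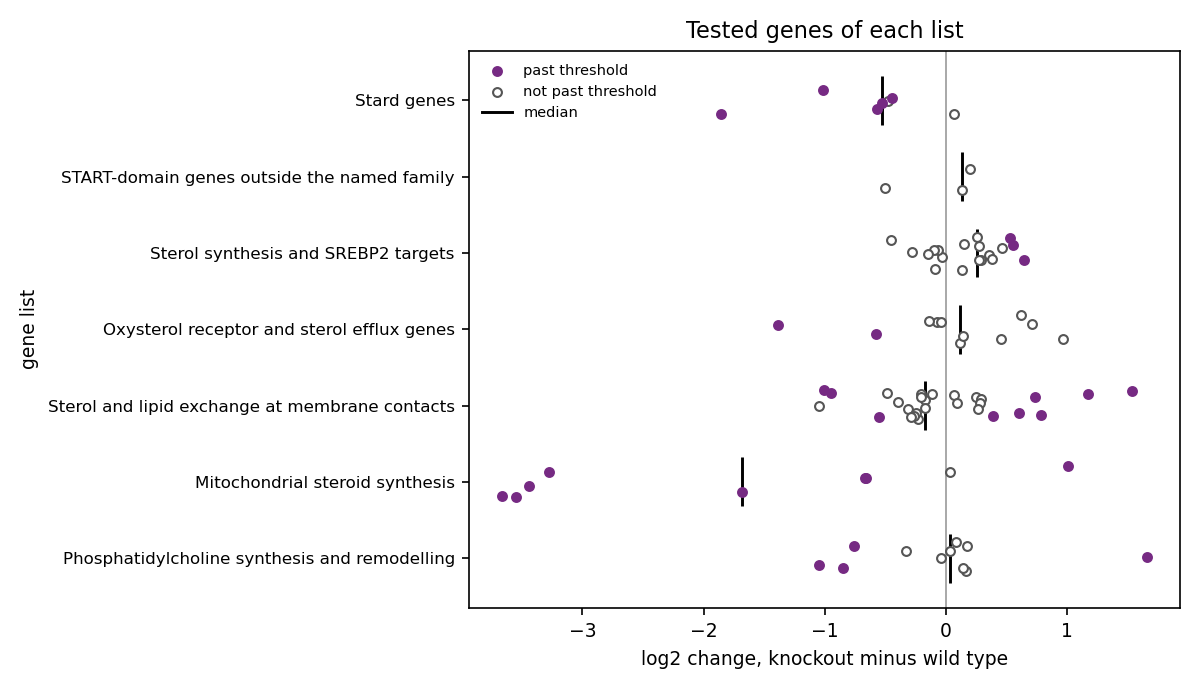
Log2 change, knockout minus wild type, of each tested gene of the Stard family and of the 6 other gene lists, with the list median as a line and filled points past the threshold. The Stard median lies at -0.53 and that of mitochondrial steroid synthesis at -1.68, while the sterol synthesis median lies at 0.25.

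The genes next to the members on the chromosome were tested where they had enough reads. Upstream of Stard10, 14818 bases away, Atg16l2 averaged 23.7 ± 12.4 in knockout and 106.0 ± 38.8 in wild-type libraries and fell as Stard10 did (log2 change -2.22, SE 0.48, limma adjusted p = 0.0126). Next to Stard7, 9093 bases away, Tmem127 went the other way and rose to 1565 ± 53.2 in knockout against 1217 ± 40.7 in wild-type libraries (limma adjusted p = 0.0231). Beside Stard3, 83 bases away, 1700003D09Rik had 394 ± 96.4 in knockout and 580.4 ± 71.1 in wild-type libraries (limma adjusted p = 0.06), and beside Stard4 Camk4 had 42.9 ± 17.1 in knockout and 42.6 ± 4.25 in wild type (limma adjusted p = 0.902). The neighbours of Star, Lsm1 and Ash2l, and that of Stard6, Poli, did not pass the threshold either (limma adjusted p = 0.348, 0.0885 and 0.121). Haus2 and Ttbk2, on either side of Stard9, both fell (limma adjusted p = 0.0447 and 0.015). The call of Haus2 was lost with any 1 library left out, with no filter (limma adjusted p = 0.0659), after quantile normalization (limma adjusted p = 0.0654) and with DESeq2 (adjusted p = 0.0732). The call of Tmem127 was lost without KO3, WT1, WT2 or the library labelled WT3 (limma adjusted p = 0.0556 in the last), that of Ttbk2 without WT1 or WT2, and that of Atg16l2 without WT2. With the marker covariate none of these 4 genes passed the threshold.

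By the Pearson correlation of log2 levels over the 6 libraries, the one labelled WT3 included, the tested genes most like Stard10 were Tob1, Zfand1 and Acaa1a, at 0.998, 0.998 and 0.997. Tob1, an antiproliferative regulator, averaged 1763 ± 410.3 in knockout and 3537 ± 666 in wild-type libraries, and Acaa1a, a peroxisomal thiolase, 1090 ± 189 in knockout and 1911 ± 289. in wild type The genes most like Stard8 were Tspan33, Sstr1 and Fto, at 0.999, 0.998 and 0.997, and those most like Stard3 were Taf13, Tmem176b and Atg5, at 0.977, 0.970 and 0.962. So close a likeness was common for Stard10 and Stard8, to which 705 and 545 tested genes correlated above 0.95, and rare for Stard3, with 7.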

How the data were processed

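RNA of 3 knockout and 3 wild-type preparations was made into non-stranded TruSeq libraries, per the labels' protocols. The submitters' processing notes name FastQC, TopHat, DESeq2 and mm10; which counter and which annotation were used is not given in the sources used here. Values in the deposited table are a normalized signal: the authors scaled each library's gene counts by a size factor, and 100% of the values were whole reads within 0.001. RefSeq (GRCm38.p6) gave a symbol for 23666 of 23725 Entrez numbers. Exon lengths are unions of GENCODE M21 exons.

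Genes reaching a value of 10 in 3 or more of the 6 libraries (12837) were fitted on log2(value + 1) with limma 3.58.1 (R 4.3.3) and an intensity trend. The SE of a log2 change is moderated across genes in this fit, whereas an SD is that of the gene's own values. Benjamini-Hochberg adjustment ran over all of them, with a threshold of 0.05. Log2 changes are knockout minus wild type and understate the change of low genes. Limits from a count of 0 use 3 reads and cover counting error only. Alternatives were edgeR 4.0.16 and DESeq2 1.42.0 on whole reads, other pseudocounts, filters and scalings, library weights, a marker covariate and each library left out.

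Members and lists were chosen with earlier results of these data known. Named are all members, Nr3c1, other START-domain genes, up to 3 genes of smallest p per list, tested neighbours, and the 3 genes most correlated with the member of highest level, largest rise and largest fall, passing over predicted genes. Replicate numbers follow accession order, so they pair no samples, and no batch is labelled. Certain genes and a gene list are not reported here and were left out of the list counts, whatever their values.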

Additional observations from a re-analysis of the deposited data

How the results depend on the processing

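Under pseudocounts of 0.5 and 5, no filter, a filter at 50, TMM scaling, quantile normalization, library weights, edgeR and DESeq2 the number of genes changed stayed within 1.5 times of 3910 and that of members called at 5 or 6. With the immune and stromal marker level as a covariate the numbers were 57 genes and 0 members, and the cause was not tested. With 1 library left out they ranged from 1923 to 3607 genes and from 2 to 5 members, lowest without WT1 (1923 and 2) and WT2 (1960 and 2). Stard13 was called with TMM scaling, library weights, the filter at 50 and without KO3, and Stard8 could not be tested with the filter at 50. No member turned direction under the 16 alternatives. With the covariate Pctp was at a log2 change of 0.095, Acot11 at -0.18, 1700003D09Rik at 0.17 and Camk4 at 0.058. Camk4, at -0.054 in the fit of the report, was also 0.086 with library weights, 0.0028 with edgeR and 0.016 with DESeq2, and ranged from -0.35 to 0.18 with 1 library left out. Atg5 ranged from -0.0099 to 0.19 with 1 library left out. The log2 change of Nr3c1 ranged from -2.82 to -1.57. No paired analysis was possible because the labels give no replicate numbers shared by the groups. Depth limits Star, Stard6, Stard8, Dlc1 and Acot12, which had under 50 reads in every library.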
